A study of Mus musculus with 12 samples.

Results

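The late biopsies of 6 mouse colon tumors were compared by the final pathology of the tumor. They comprised 3 biopsies read as intramucosal carcinoma and 3 read as adenoma, taken from the 12 arrays of the series as the samples whose titles say that the biopsy was late. The comparison was unpaired, with 1 biopsy per tumor, 1 tumor per mouse and 1 array per biopsy, and it covered all genes on the array. The carcinoma biopsies came from mouse 2201, a male of 267 days, mouse 3407, a female of 215 days, and mouse 3413, a male of 200 days. The adenoma biopsies came from mouse 1755, a female of 234 days, mouse 1803, a male of 369 days, and mouse 1805, a male of 395 days. All 6 animals were F1 hybrids (SWR x C57BL/6) with the genotype Apc Min/+, and all had drunk 4% dextran sodium sulfate in 2 treatments at weaning. Per the labels, each treatment lasted 4 days, with 17 days of water between them, 30 days were left for tumors to start, and tumors were then biopsied by colonoscopy every 28 days. Neither an untreated group nor normal colon was analysed here, so each value sets carcinoma against adenoma in mice that share allele and treatment.

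The Min allele truncates Apc, the scaffold that marks beta-catenin for destruction, and a colon cell that loses the other copy keeps the Wnt pathway switched on. Dextran sodium sulfate injures the colon lining, and in Apc mutant mice tumors then form in the distal colon. Wnt signals hold crypt base cells in a dividing, undifferentiated state, while cells that leave the crypt become absorptive colonocytes, mucus-making goblet cells or hormone-making enteroendocrine cells. Intramucosal carcinoma is a growth with invasive cells that have not passed the thin muscle layer under the mucosa, and adenoma is its benign precursor.

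A biopsy holds epithelium, stroma and immune cells together, and in such bulk samples fewer cells of a type and less RNA per cell cannot be told apart. The tissue label held on all 6 arrays. The 12 intestinal epithelial markers measured averaged 12.03 to 12.19 log2 intensity in carcinoma and 12.17 to 12.75 in adenoma. The arrays had medians of 7.71 to 7.80 log2, and recorded sex matched Xist and the Y-linked genes in 6 of 6. Correlations across genes were 0.984 to 0.993 between carcinoma arrays, 0.969 to 0.983 between adenoma arrays and 0.958 to 0.991 between the groups. Adenoma 1805 stood apart, at 0.958 to 0.978 with the other late arrays. Adenoma 1803 lay nearer to carcinoma, at 0.991 with carcinoma 3413, 0.989 with carcinoma 3407 and 0.987 with carcinoma 2201, against 0.983 with adenoma 1755 and 0.969 with adenoma 1805. The submitters' sample numbers were 370 for carcinoma 3407, 365 for carcinoma 3413, 368 for adenoma 1803 and 379 for adenoma 1805, the array that stood apart. They were 346 for carcinoma 2201 and 319 for adenoma 1755. The labels do not say what the numbers stand for. Adenoma 1755 was also nearest to a carcinoma array, at 0.987 with carcinoma 2201 against 0.983 with adenoma 1803 and 0.978 with adenoma 1805. Carcinoma 3407 was nearest to adenoma 1803, so the arrays did not group fully by pathology. Age went with pathology in part, at 227 ± 35.2 days for carcinoma and 333 ± 86.4 days for adenoma (SD, n = 3 each), and adenoma 1755 lay inside the age range of the carcinoma mice. For many list medians and named genes, the value without adenoma 1805 or adenoma 1803 is given beside it. Values given alone were not always stable to leaving out either array.

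**Figure D1:**
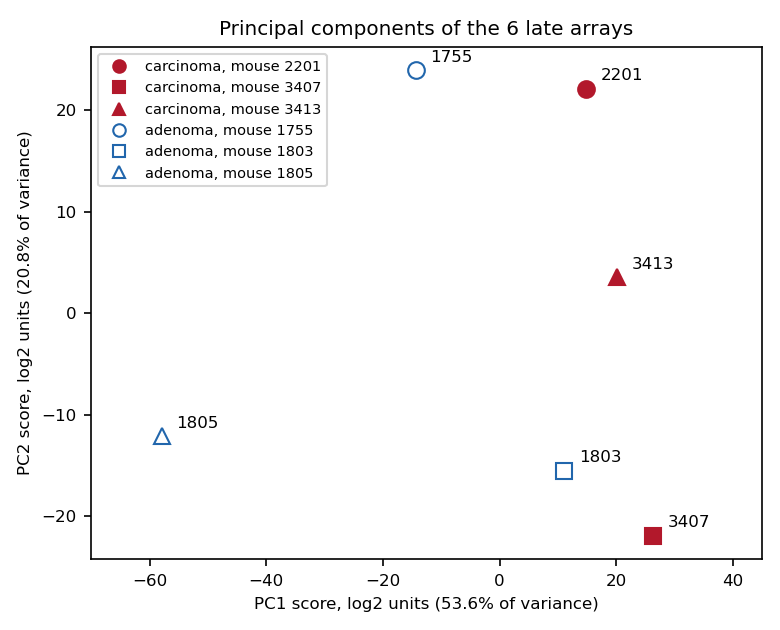
Scores of the 6 late arrays on the first principal component (horizontal, log2 units, 53.6% of the variance) and the second (vertical, log2 units, 20.8%), over all genes. Filled red symbols are carcinoma and open blue symbols adenoma: adenoma 1805 lies alone at -57.9 on the first component, and adenoma 1803, at 11.1, lies among the carcinoma arrays at 14.8 to 26.3.

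The comparison asked how tumors that reached intramucosal carcinoma differed at their last biopsy from those that stayed adenoma. No gene separated the groups at the threshold used. Of 19938 genes tested with limma, 0 (0%) had a Benjamini-Hochberg adjusted p of at most 0.05, and the smallest was 0.305. Unadjusted p was under 0.05 for 1543 genes (7.74%), of which 903 were higher and 640 lower in carcinoma, against 996.9 that a test of no difference would give on average. That split depended on the scaling: after quantile normalization of the arrays it was 676 higher and 882 lower. In 1748 genes (8.77%) the 3 carcinoma arrays all lay above the 3 adenoma arrays, and in 1221 (6.12%) they all lay below. The larger differences ran mostly downward. A difference of at least 1 log2 was seen in 337 genes, 87 higher and 250 lower, and the groups did not overlap in 41 and 100 of these. The number of arrays limits the precision: the median standard error was 0.117 log2, and an exact permutation test of 3 against 3 cannot give a 2-sided p below 0.1 for any single gene.

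Without adenoma 1803, 11 genes passed the threshold, all of them lower in carcinoma, with adjusted p from 0.0376 to 0.0499 by limma. They are given because of that call, so they were chosen after their values were seen. Galnt12, which starts the O-glycans of mucins, differed by -1.74 log2 without that array and by -1.34 with it. The others were Ms4a12 (-3.02 without that array), Ccn3 (-2.73), Fam3b (-2.48), F13a1 (-2.43), Slc6a14 (-2.09), Bmp8b (-1.91), Pgap1 (-1.77), Atp2a3 (-1.61), Clca3b (-1.54) and Slc35a1 (-1.43). Ccn3, a matricellular growth inhibitor, stood at 7.26, 7.42 and 7.16 log2 in carcinoma 2201, 3407 and 3413, against 10.14, 7.74 and 9.88 in adenoma 1755, 1803 and 1805. Adenoma 1803 lay close to the carcinoma arrays there, though the groups did not overlap.

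The genes with the smallest p among those whose groups did not overlap are described next, 12 in each direction, and the values of 3 arrays are always in the order 2201, 3407 and 3413 for carcinoma and 1755, 1803 and 1805 for adenoma. They were picked by their p in this comparison, so their separation describes them and supports nothing further. Those higher in carcinoma were 0.56 to 1.71 log2 apart, with adjusted p from 0.305 to 0.592.

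Cap2, a cyclase-associated protein that binds actin, had 10.30, 10.24 and 10.35 log2 in carcinoma, against 9.45, 9.32 and 9.29 in adenoma. Each group was tight and the gap between them was several times the spread within either, a difference of 0.94 (SE 0.0825, adjusted p = 0.305 by limma). Pld5, a member of the phospholipase D family, had 7.84, 7.58 and 7.59 in carcinoma and 6.47, 6.62 and 6.38 in adenoma, a difference of 1.18 (SE 0.112, adjusted p = 0.305). Its mean level over the late arrays stood at percentile 31.5 of all genes, in the dim part of the range. The adhesion molecule Pcdh19, a protocadherin, had 8.80, 9.11 and 8.94 in carcinoma and 7.60, 7.67 and 7.18 in adenoma, 1.47 apart (SE 0.156, adjusted p = 0.333).

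Tnfsf10 encodes TRAIL, a ligand that triggers cell death through its receptors. It had 10.83, 10.41 and 10.32 log2 in carcinoma and 8.96, 8.97 and 8.51 in adenoma, a difference of 1.71 (SE 0.187, adjusted p = 0.333). Adenoma 1803, which lay nearer to carcinoma over all genes, stood with the other adenomas for this gene. Mab21l3 had 10.13, 9.46 and 9.67 in carcinoma and 8.23, 8.20 and 8.01 in adenoma, 1.61 apart (SE 0.180). The remaining 7 were 0.56 to 1.12 apart. Tox3, a nuclear protein with an HMG box, differed by 0.96, and Parp8, of the ADP-ribosyltransferase family, by 0.93. Dock11, which activates the small GTPase Cdc42, differed by 0.97, Pid1, an adaptor known from insulin signalling, by 1.12, and Kansl1l by 0.77. Scel, a precursor of the cornified envelope, differed by 0.71 and Msr1, a scavenger receptor of macrophages, by 0.56. The 12 differences changed little when adenoma 1805 was left out (0.57 to 1.56), when adenoma 1803 was left out (0.58 to 1.79) or with age as a covariate (0.64 to 1.66).

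**Figure D2:**
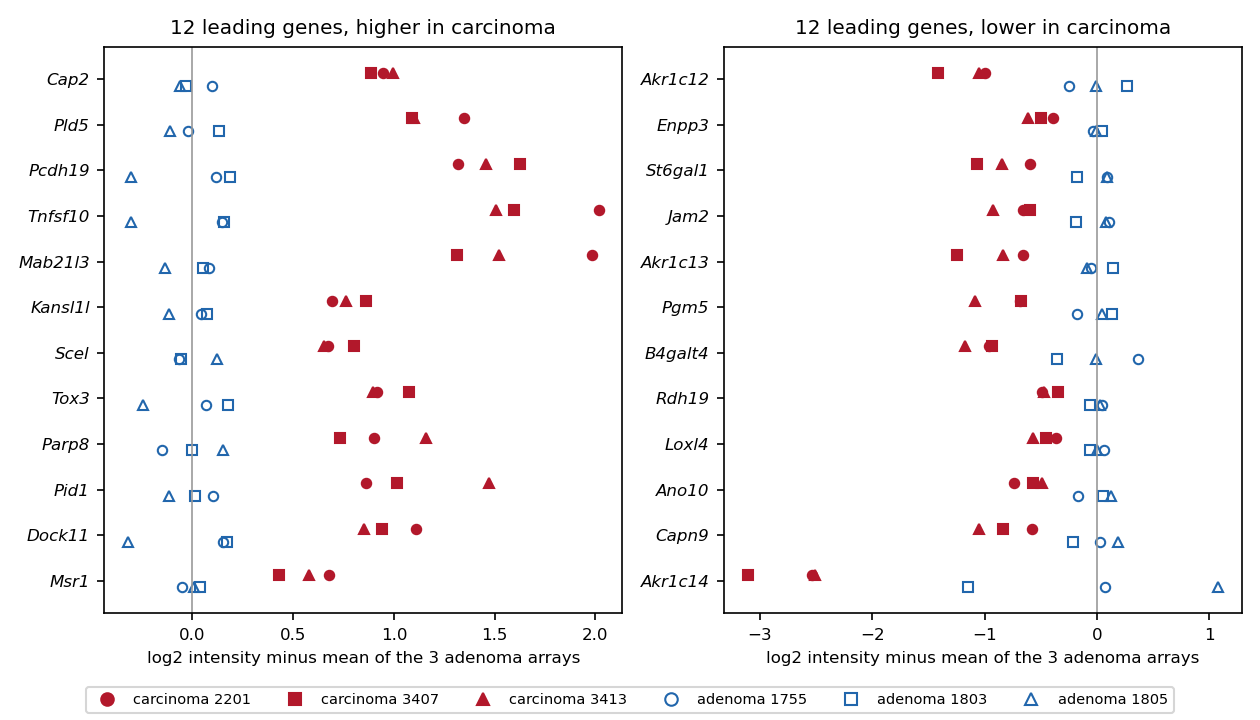
Log2 intensity of each late array minus the mean of the 3 adenoma arrays (horizontal) for the 12 genes higher in carcinoma (left) and the 12 lower (right), by increasing p from the top. Filled red symbols are carcinoma and open blue symbols adenoma; the groups do not overlap in any of the 24 genes because that was a condition of the choice, and Akr1c14 has the widest adenoma spread.

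Those lower in carcinoma were 0.43 to 2.72 log2 apart, each with an adjusted p of 0.592 by limma. Of these 12, 3 were aldo-keto reductases, enzymes that reduce carbonyl groups of steroids and xenobiotics, and they lie in 1 cluster of Akr1c genes on chromosome 13. Akr1c12 had 7.75, 7.33 and 7.69 log2 in carcinoma and 8.49, 9.01 and 8.73 in adenoma, a difference of -1.16 (SE 0.172). Akr1c13 had 8.28, 7.69 and 8.10 in carcinoma and 8.89, 9.08 and 8.85 in adenoma, a difference of -0.92 (SE 0.165). In both, adenoma 1803 was the highest array of the 6. Akr1c14, a 3-alpha-hydroxysteroid dehydrogenase, had 5.56, 4.99 and 5.59 in carcinoma and 8.17, 6.95 and 9.18 in adenoma, a difference of -2.72 (SE 0.540). Its carcinoma values lie at the dim end of the array, and adenoma 1803 was the lowest of the adenomas. Akr1c19, of the same cluster, had 7.7, 8.12 and 8.25 in carcinoma and 9.15, 7.99 and 9.08 in adenoma, overlapping through adenoma 1803, with a difference of -0.71 that was -1.09 without it.

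Akr1c12 and Akr1c13 are close copies of each other, so probes may not tell their transcripts apart, and their values are not counted here as separate evidence. Their promoters show how alike the copies are, and they are printed for that reason. They run 5′ to 3′ from 250 bases before to 50 after the gene start, from RefSeq on GRCm38.p6, at chr13:4279350-4279649 on the minus strand for Akr1c12 and chr13:4190937-4191236 on the plus strand for Akr1c13. Capitals mark bases that differ between the 2 in a global alignment or lie opposite a gap inside it, and unpaired bases at the ends stay in lower case.
Akr1c12: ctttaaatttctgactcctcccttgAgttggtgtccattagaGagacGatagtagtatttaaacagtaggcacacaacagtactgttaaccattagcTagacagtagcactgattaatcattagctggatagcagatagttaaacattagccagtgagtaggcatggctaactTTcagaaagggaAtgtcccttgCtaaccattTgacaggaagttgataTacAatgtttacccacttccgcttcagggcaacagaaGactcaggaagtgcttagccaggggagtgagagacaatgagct
Akr1c13: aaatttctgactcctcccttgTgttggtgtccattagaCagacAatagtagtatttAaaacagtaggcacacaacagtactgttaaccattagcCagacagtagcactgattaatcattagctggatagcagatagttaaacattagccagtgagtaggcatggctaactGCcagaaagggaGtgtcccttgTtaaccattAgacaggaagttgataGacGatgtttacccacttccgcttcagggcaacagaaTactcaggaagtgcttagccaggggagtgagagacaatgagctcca
Over 296 aligned bases, 284 were the same (95.9% identity), with 12 differences and 1 base in a gap inside the alignment. The promoter of Akr1c14 (chr13:4059341-4059640, plus strand) had 59.2% identity with that of Akr1c12 over 260 aligned bases and 59.6% with that of Akr1c13.

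Another 2 of the 12 genes act on glycans. St6gal1, which caps galactose with alpha-2,6 sialic acid, had 8.56, 8.09 and 8.31 log2 in carcinoma and 9.25, 8.98 and 9.25 in adenoma (difference -0.84, SE 0.147). B4galt4, a galactosyltransferase, had 8.06, 8.09 and 7.85 in carcinoma and 9.39, 8.67 and 9.01 in adenoma (difference -1.02, SE 0.189). Both groups were well apart in each. Jam2, a junctional adhesion molecule, differed by -0.73, and Pgm5, a phosphoglucomutase relative of muscle adhesion sites, by -0.81. Capn9, a calpain of the digestive tract that is abundant in goblet cells, differed by -0.82 and Ano10, an anoctamin membrane protein, by -0.60. The ectonucleotidase Enpp3 differed by -0.51, the lysyl oxidase relative Loxl4 by -0.46 and the retinol dehydrogenase relative Rdh19 by -0.43. As for the genes higher in carcinoma, 0 of the 12 changed direction under any alternative setting. This was partly fixed by the choice, since groups that do not overlap cannot change direction when 1 array is left out.

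The early biopsies of the same tumors were set beside these differences. The labels give no pathology for an early biopsy, so early arrays were placed by the final pathology of the mouse, and their values are a description. They also differ in array background. The mean of 50 probe sets that name no gene was 7.13 log2 for mouse 2201 and 6.84 to 6.87 for the other carcinoma-fated tumors, against 7.08 to 7.19 for the 3 adenoma-fated tumors. Its part in the early values was not tested. Over all genes, early arrays did not overlap in 10.7% of genes with carcinoma-fated tumors higher and in 7.31% with them lower. The share of all genes with the same direction early and late was not counted, and both biopsies come from the same tumors.

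Among the 12 genes higher in late carcinoma, 10 had the same direction early, but the early groups did not overlap in 1, Parp8, at 9.32, 9.30 and 9.86 log2 in carcinoma-fated tumors and 8.01, 8.61 and 8.90 in adenoma-fated ones. Pcdh19 (-0.48) and Pld5 (-0.25) had the other sign early. Pld5 was even across the early arrays apart from mouse 1803: it was at 6.46, 6.44 and 6.49 early in carcinoma-fated tumors and at 6.51, 7.13 and 6.49 in adenoma-fated ones. Apart from mouse 1803, these early values lay below the mean of the 50 probe sets that name no gene on the same array. So did the late adenoma values of Pld5, 6.47, 6.62 and 6.38, against 6.90, 6.80 and 6.94. Whether a floor evens such values was not tested. The late difference of Pld5 exceeded its early one by 1.43 log2 (adjusted p = 0.0904 by limma, over 12 arrays), the smallest adjusted p of that contrast, in which 0 genes passed and 1503 had an unadjusted p under 0.05. Among the 12 genes lower in late carcinoma, 10 had the same direction early and 5 had early groups that did not overlap, namely Akr1c12, Akr1c13, Akr1c14, Ano10 and Capn9. Akr1c12 and Akr1c13 are both in these counts, though their values are not separate evidence. Akr1c14 was at 6.17, 6.88 and 7.34 early in carcinoma-fated tumors and at 8.81, 8.58 and 10.77 in adenoma-fated ones. Jam2 and Loxl4 went the other way early, with carcinoma-fated tumors higher by 0.67 and 0.21.

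**Figure D3:**
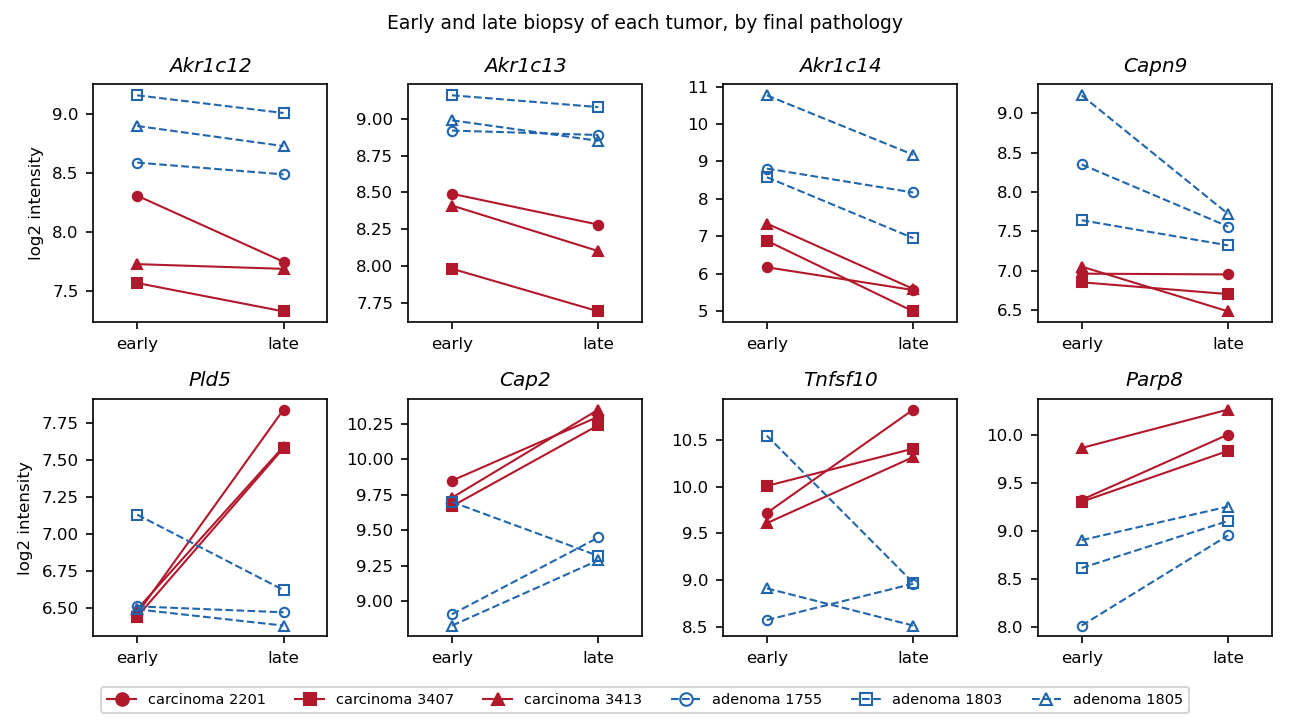
Log2 intensity in the early and late biopsy of each tumor (horizontal axis, time) for 8 of the leading genes, 1 line per mouse. Solid red lines are tumors read as carcinoma and dashed blue lines those read as adenoma: the Akr1c genes and Capn9 were lower in the red lines at both times, whereas the red lines of Pld5 started at 6.44 to 6.49 and ended at 7.58 to 7.84.

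By size rather than by p, the genes furthest apart among those whose groups did not overlap had, beside Akr1c14, wide adenoma spreads. Lrrc19 had 7.93, 6.17 and 8.04 log2 in carcinoma and 10.92, 8.98 and 11.65 in adenoma, a difference of -3.14 (SE 0.801). Sult1b1, a sulfotransferase of the gut epithelium, had 7.16, 5.50 and 7.22 in carcinoma and 9.86, 7.91 and 11.24 in adenoma, a difference of -3.04 (SE 0.894). Thbs4, a thrombospondin of the matrix, differed by -2.65, Tmem236 by -2.48 and Itih5, which binds hyaluronan, by -2.34. In all 5, adenoma 1803 was the lowest adenoma and adenoma 1805 the highest. Without adenoma 1803 these differences were -3.08 to -3.92, and without adenoma 1805 they were -1.48 to -2.57. In the upward direction Pnliprp1, a relative of pancreatic lipase, had 11.18, 11.94 and 11.20 in carcinoma and 10.95, 8.97 and 7.24 in adenoma, a difference of 2.39 that became 1.48 without adenoma 1805 and 0.49 with age as a covariate. Lect2, a secreted chemotaxin, had 9.04, 9.28 and 9.25 in carcinoma and 8.76, 7.22 and 6.99 in adenoma, 1.54 apart and 0.47 with age. St8sia6, a sialyltransferase, was 1.72 apart and 1.13 with age, and Erich3 was 1.56 apart and 1.03 without adenoma 1805.

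Gene groups were described by 57 lists of cell types and pathways, 900 measured genes of 1000 listed, of which 0 passed the threshold. The median difference over all genes was 0.0158 log2, and 54.2% of genes were higher in carcinoma. The list of mature surface colonocytes was the lowest of the epithelial lists: 20 of 21 genes were lower in carcinoma, with a median of -1.19 log2, and in 3 the groups did not overlap, against 6.12% of all genes. The mean level of the list was 9.54, 8.69 and 9.28 log2 in carcinoma and 10.70, 9.41 and 10.99 in adenoma, so that adenoma 1803 fell within the carcinoma range. Cdhr2, a protocadherin of the brush border, had 9.32, 7.93 and 9.0 in carcinoma and 11.27, 9.60 and 12.26 in adenoma (difference -2.29, SE 0.707). Its difference was -1.68 without adenoma 1805 and -3.01 without adenoma 1803. Guca2a, the hormone guanylin that sets fluid secretion, had 10.16, 9.74 and 8.81 in carcinoma and 11.04, 10.23 and 11.02 in adenoma (difference -1.19, SE 0.388). Krt20, the keratin of differentiated surface cells, had 9.38, 7.03 and 10.02 in carcinoma and 12.36, 9.91 and 13.00 in adenoma, and the groups overlapped despite a difference of -2.95 (SE 1.05). That difference was -2.32 without adenoma 1805 and -3.87 without adenoma 1803. The list median was -0.781 without adenoma 1805, -1.63 without adenoma 1803 and -1.12 with age as a covariate.

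Goblet cell genes were lower in carcinoma in 13 of 14, with a median of -0.942 log2, and in 9 of them the groups did not overlap. Over all genes that share was 6.12%. The list means overlapped, at 10.11, 9.32 and 9.15 in carcinoma and 11.05, 10.01 and 10.79 in adenoma, since carcinoma 2201 lay above adenoma 1803. The 14 include Capn9, which also led by p. Muc2, the main gel-forming mucin of the colon, had 12.92, 12.23 and 11.73 in carcinoma and 13.95, 13.20 and 13.81 in adenoma, a difference of -1.36 (SE 0.339). Best2, the bicarbonate channel of colonic goblet cells, had 7.23, 7.51 and 6.59 in carcinoma and 7.98, 8.65 and 8.46 in adenoma, a difference of -1.26 (SE 0.278). Galnt12 had 8.89, 8.73 and 8.67 in carcinoma and 10.39, 9.28 and 10.62 in adenoma. In contrast to the surface genes, the goblet median changed little without adenoma 1805 (-1.06), without adenoma 1803 (-1.10) or with age as a covariate (-1.07). Its dependence on single carcinoma arrays is not given here, and their list means ran from 9.15 to 10.11.

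Enteroendocrine genes were lower in 13 of 14, with a median of -0.316 log2. The list was dim, with a median member at percentile 33.8 of all genes by mean level. The 1 gene higher in carcinoma was its brightest, at percentile 89.1. The mean level of the list did not overlap between the groups, at 7.25, 7.21 and 7.07 in carcinoma and 7.95, 7.26 and 7.90 in adenoma. Adenoma 1803 lay just above the highest carcinoma array. List means did not overlap in 5 of the 57 lists with carcinoma lower and in 1 with carcinoma higher. Chga, a granin of hormone granules, had 8.88, 8.68 and 8.33 in carcinoma and 10.34, 8.94 and 10.15 in adenoma (difference -1.18, SE 0.378), and its relative Chgb differed by -1.66 (SE 0.521). Without adenoma 1803 these differences were -1.61 and -2.26, and without adenoma 1805 they were -1.01 and -1.27. Xenobiotic enzymes and exporters were lower in 26 of 31 (median -0.553), including Cyp2s1 at -1.70 and the alcohol dehydrogenase Adh1 at -1.03. Without adenoma 1805 that median was -0.335, with Cyp2s1 at -1.06 and Adh1 at -0.67, and without adenoma 1803 it was -0.809. Fatty acid use genes were lower in 15 of 17 (median -0.21, and -0.322 without adenoma 1803). Among these the fatty acid carrier Fabp2 had 6.87, 5.65 and 5.48 in carcinoma and 9.87, 6.30 and 8.58 in adenoma, overlapping through adenoma 1803.

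The general epithelial markers moved with these lineage lists: all 12 were lower in carcinoma, by a median of -0.425 log2, and their part in the lineage differences was not tested. That median was -0.316 without adenoma 1805 and -0.532 without adenoma 1803. Krt19, a keratin of simple epithelium, had 12.97, 12.96 and 13.01 in carcinoma and 13.34, 13.30 and 13.70 in adenoma (difference -0.46, SE 0.123). Hnf4a, a factor of intestinal identity, had 12.31, 12.35 and 12.26 in carcinoma and 12.83, 12.44 and 12.95 in adenoma (difference -0.43, SE 0.142). Cdx2, a homeobox factor of the intestine, had 8.95, 7.97 and 8.02 in carcinoma and 11.57, 8.64 and 10.17 in adenoma, with overlap. E-cadherin, Cdh1, differed by -0.16 (SE 0.143), less than its spread in adenoma, and by -0.01 without adenoma 1805 and -0.28 without adenoma 1803. Tuft cell genes showed no common direction, 6 of 10 higher with a median of 0.0522. Squamous-type genes were lower in 15 of 19 (median -0.211), and the median was -0.127 without adenoma 1805, -0.0589 without adenoma 1803 and -0.0702 with age as a covariate. Sprr1a, a cornified envelope protein, had 8.99, 10.09 and 10.00 in carcinoma and 11.66, 10.87 and 12.41 in adenoma (difference -1.95, SE 0.456). Its difference was -1.58 without adenoma 1805 and -2.34 without adenoma 1803.

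**Figure D4:**
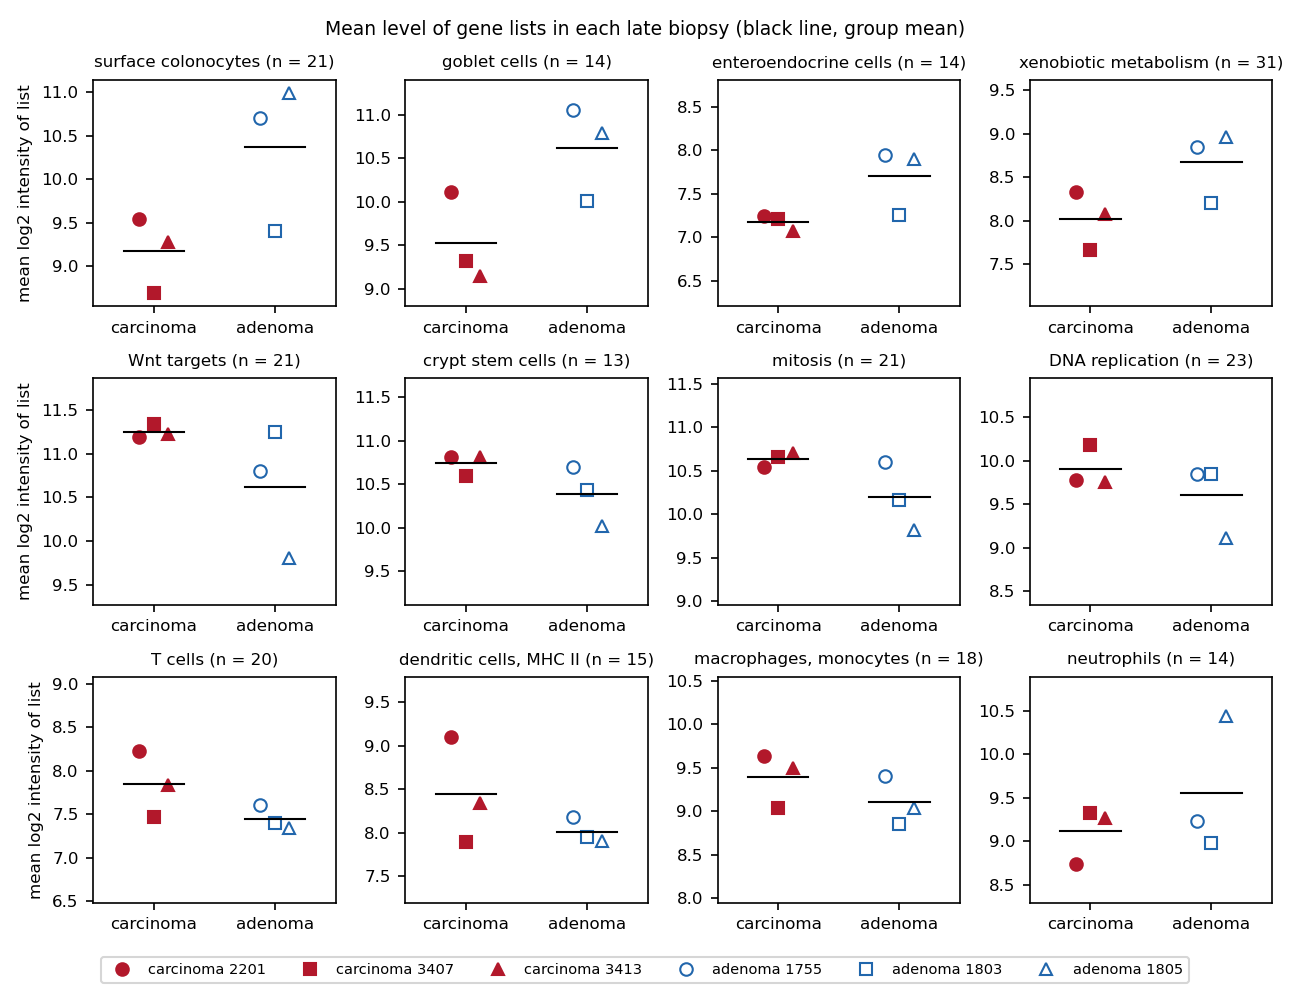
Mean log2 intensity over the measured genes of 12 lists (vertical, each panel spanning the same range of log2 units) in each late biopsy, carcinoma at the left and adenoma at the right, with black lines at the group means. Adenoma 1803 (open square) lies in or next to the carcinoma range for surface colonocyte, Wnt target and DNA replication genes, and adenoma 1805 (open triangle) is the extreme array for Wnt target, mitosis and neutrophil genes.

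Targets of the Wnt pathway were higher in carcinoma in 21 of 21 genes, with a median of 0.674 log2, and in 4 the groups did not overlap, against 8.77% of all genes. The list means overlapped, at 11.19, 11.34 and 11.23 in carcinoma and 10.81, 11.25 and 9.80 in adenoma. Adenoma 1805 set much of that distance: without it the median was 0.204, and without adenoma 1803 it was 1.01. Lgr5, the Wnt target that marks crypt stem cells, had 12.88, 12.53 and 12.54 in carcinoma and 12.22, 11.31 and 10.03 in adenoma, a difference of 1.46 (SE 0.520) and 0.88 without adenoma 1805. Wif1, a secreted inhibitor of Wnt ligands, had 12.22, 12.36 and 12.20 in carcinoma and 11.52, 11.85 and 9.68 in adenoma (difference 1.24, SE 0.546, and 0.57 without adenoma 1805). Axin2, the feedback scaffold, had 11.63, 11.76 and 11.72 in carcinoma and 11.23, 11.83 and 10.15 in adenoma, and the groups overlapped, with a difference of 0.63 that was 0.17 without adenoma 1805 and 1.01 without adenoma 1803. Myc, a growth regulator downstream of Wnt, had 11.60, 11.98 and 11.40 in carcinoma and 11.77, 11.96 and 10.49 in adenoma, and its difference of 0.26 (SE 0.400) became -0.20 without adenoma 1805 and 0.53 without adenoma 1803.

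Wnt ligands and receptors had no common direction, 15 of 31 higher with a median of -0.0271 (0.014 without adenoma 1803). The groups did not overlap in 3 genes with carcinoma higher and in 3 with carcinoma lower, against 8.77% and 6.12% of all genes. Some of those higher did not depend on the array that stood apart. Wnt6, a ligand, had 8.22, 8.78 and 8.52 log2 in carcinoma and 7.58, 7.78 and 7.71 in adenoma, a difference of 0.82 (SE 0.152) and 0.82 without adenoma 1805. Fzd10, a frizzled receptor, had 8.10, 8.13 and 8.05 in carcinoma and 7.63, 7.77 and 7.68 in adenoma, a difference of 0.40 (SE 0.0772) and 0.39 without adenoma 1805. Both groups were tight for Fzd10, whereas the carcinoma values of Wnt6 ran from 8.22 to 8.78. Neither gene passed, with an adjusted p of 0.592 by limma. The co-receptor Lrp6 differed by 0.19 (SE 0.0751). Apc itself had 10.62, 11.02 and 11.05 in carcinoma and 10.96, 11.05 and 10.99 in adenoma, and Ctnnb1, beta-catenin, had 13.33, 13.33 and 13.39 in carcinoma and 13.17, 13.30 and 13.24 in adenoma. The difference of Apc was -0.10 (SE 0.132), and that of Ctnnb1 was 0.11 (SE 0.0760) and the groups only just missed each other. Crypt stem cell genes were higher in 11 of 13 (median 0.399, and 0.154 without adenoma 1805), among them the matrix protein Smoc2, which differed by 0.92, and Cdca7, by 0.73. Without adenoma 1805 these were 0.35 and 0.40. Some genes, Lgr5 among them, are on both this list and that of Wnt targets. With age as a covariate the stem cell median was 0.14. Olfm4, of the same list, went the other way by the largest difference in it, -1.58 (SE 0.957, and -0.63 without adenoma 1805). It had 7.66, 7.28 and 9.60 in carcinoma and 8.88, 8.73 and 11.67 in adenoma, with overlap.

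Mitosis genes were higher in carcinoma in 21 of 21, with a median of 0.418 log2, and in 7 the groups did not overlap, against 8.77% of all genes. Top2a, the topoisomerase that untangles chromosomes, had 11.46, 11.62 and 11.66 in carcinoma and 11.34, 11.10 and 10.44 in adenoma (difference 0.62, SE 0.231). Cdk1, the kinase that starts mitosis, had 11.09, 11.30 and 11.23 in carcinoma and 11.01, 10.80 and 10.21 in adenoma (difference 0.53, SE 0.209). Mki67, a marker of dividing cells, had 11.71, 11.92 and 11.97 in carcinoma and 11.99, 11.35 and 11.20 in adenoma, where adenoma 1755 was the highest of all 6 arrays. DNA replication genes were higher in 22 of 23 (median 0.285), with groups that did not overlap in 1, Rrm1. Without adenoma 1805 the mitosis median was 0.233 and the replication median 0.0766, and Top2a differed by 0.36, Cdk1 by 0.30, Mki67 by 0.19 and Rrm1 by 0.18. With age as a covariate the medians were 0.00822 for mitosis and 0.0062 for replication, and age and pathology cannot be fully told apart here. Among the adenomas, the mitosis level was 10.60 at 234 days, 10.17 at 369 days and 9.82 at 395 days. The carcinoma level was 10.71 at 200 days, 10.66 at 215 days and 10.54 at 267 days. Over all 6 arrays, whatever the pathology, the mitosis level was lower at each greater age. The replication level showed no such order with age: it was 9.78, 10.18 and 9.76 in carcinoma and 9.85, 9.85 and 9.12 in adenoma, where adenoma 1805 was the array apart.

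Most genes of the T cell, dendritic cell and macrophage lists were higher in carcinoma, and carcinoma 2201 had the highest level of each list. Of 20 T cell genes 17 were higher (median 0.409 log2, and 0.271 without adenoma 1803), with list means of 8.22, 7.47 and 7.83 in carcinoma and 7.60, 7.40 and 7.34 in adenoma, overlapping through carcinoma 3407. Il2ra, the interleukin-2 receptor chain of activated and regulatory T cells, had 9.31, 8.92 and 8.46 in carcinoma and 8.41, 7.89 and 8.02 in adenoma (difference 0.79, SE 0.241). Cd3d, part of the T cell receptor complex, had 6.72, 6.50 and 6.72 in carcinoma and 6.41, 6.11 and 6.17 in adenoma (difference 0.42, SE 0.115). Gzmb, the cytotoxic protease granzyme B, had 9.05, 8.54 and 9.05 in carcinoma and 7.91, 7.64 and 7.20 in adenoma, a difference of 1.29 (SE 0.225). The cytotoxic list as a whole was less far apart, with 10 of 14 higher and a median of 0.131 (0.0853 without adenoma 1805). It was dim, with a median member at percentile 18.9 of all genes by mean level. Of 12 immune checkpoint genes 10 were higher (median 0.258, and 0.389 without adenoma 1805), and the groups did not overlap with carcinoma higher in 4, against 8.77% of all genes. Among these was Pdcd1, the PD-1 receptor, which differed by 0.85 (SE 0.387).

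Dendritic cell and MHC class II genes were higher in 13 of 15 (median 0.522 log2), with list means of 9.10, 7.89 and 8.34 in carcinoma and 8.18, 7.95 and 7.91 in adenoma. Carcinoma 2201 was the highest and carcinoma 3407 the lowest of the 6 arrays. Itgax, the integrin CD11c, had 9.88, 8.45 and 9.12 in carcinoma and 8.35, 8.07 and 8.33 in adenoma (difference 0.90, SE 0.344), and the co-stimulator Cd86 differed by 0.53 (SE 0.184). Macrophage and monocyte genes were higher in 13 of 18 (median 0.415), among them the lysosomal marker Cd68 at 0.61 (SE 0.20) and the complement component C1qa at 0.80 (SE 0.303). Arg1, arginase, went the other way, with 8.89, 9.32 and 9.61 in carcinoma and 10.62, 9.76 and 12.41 in adenoma, a difference of -1.66 that was -0.92 without adenoma 1805. Csf1, the growth factor of macrophages, had 10.06, 9.55 and 9.94 in carcinoma and 9.23, 8.85 and 8.61 in adenoma (difference 0.95, SE 0.201). Complement genes were higher in 10 of 13 (median 0.482), among them Cfi, which cleaves C3b, at 1.33 (SE 0.455, and 0.88 without adenoma 1805). Mast cell genes were higher in 9 of 12 (median 0.534), but the groups overlapped in all 12 genes, and the level of carcinoma 2201 was 8.96 against 7.45 and 8.20 in the other carcinomas and 7.55 to 7.84 in adenoma.

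Neutrophil genes were lower in 12 of 14, with a median of -0.477 log2 that rested on adenoma 1805, whose list mean was 10.44 against 8.98 and 9.23 in the other adenomas and 8.74 to 9.32 in carcinoma. Without that array the median was -0.0622. Ly6g, a surface marker of neutrophils, had 9.44, 11.32 and 10.49 in carcinoma and 13.23, 10.26 and 13.24 in adenoma, a difference of -1.83 that was -2.83 without adenoma 1803. B and plasma cell genes were lower in 9 of 14 (median -0.34, and -0.211 without adenoma 1805). Among secreted defence proteins, Lcn2, which binds bacterial siderophores, had 12.86, 13.40 and 13.18 in carcinoma and 12.42, 11.41 and 12.05 in adenoma (difference 1.18, SE 0.276). Cp, the copper protein ceruloplasmin, had 11.22, 11.45 and 11.69 in carcinoma and 10.74, 10.72 and 10.39 in adenoma (difference 0.83, SE 0.158). Neither passed (adjusted p = 0.592 by limma), and their list of 18 had no common direction, with 10 higher and a median of 0.081 that was 0.355 without adenoma 1805. Among cytokines the groups did not overlap with carcinoma higher in 4 of 27 genes, against 8.77% of all genes. The list median was 0.102, and 0.573 without adenoma 1805. The 4 included Il23a, a subunit of interleukin-23, at 0.77 (SE 0.318) and the chemokine Ccl20 at 1.26 (SE 0.532).

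Stromal list medians were small with all 6 arrays and depended on single adenomas. Fibroblast and matrix genes were lower in 13 of 20, with a median of -0.12 log2 that was -0.209 without adenoma 1805 and -0.0441 without adenoma 1803. Col6a3, a chain of collagen VI, had 10.11, 10.35 and 10.01 in carcinoma and 10.58, 11.26 and 11.24 in adenoma (difference -0.87, SE 0.206), and Thy1, a surface protein of fibroblasts and T cells, went the other way at 0.39 (SE 0.154, and 0.24 without adenoma 1805). Pericyte and smooth muscle genes were lower in 12 of 15, and in 4 the groups did not overlap, against 6.12% of all genes. Their median of -0.0865 was -0.256 without adenoma 1805 and -0.00858 without adenoma 1803. Myh11, smooth muscle myosin, had 9.01, 8.93 and 8.81 in carcinoma and 9.57, 9.54 and 9.08 in adenoma (difference -0.48, SE 0.152), and the actin-binding Cnn1 differed by -0.59 (SE 0.195). Endothelial genes were lower in 13 of 18, by a median of -0.047 (-0.105 without adenoma 1803). Of the TGF-beta and BMP genes 15 of 25 were higher (median 0.0438, 0.0204 without adenoma 1805 and 0.0974 without adenoma 1803), with Tgfb3, a TGF-beta ligand, at 0.84 (SE 0.264) and Bmp7, a BMP ligand, at 0.43 (SE 0.137). The mesenchymal transition list had 5 of 13 higher (median -0.103, and -0.00708 without adenoma 1803), and the groups overlapped in each of its genes.

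Of the regulators of apoptosis, 7 of 15 were higher and the median was -0.0409 (0.0637 without adenoma 1805 and -0.0898 without adenoma 1803). The list mean was nevertheless the 1 of 57 that lay higher in carcinoma without overlap, at 10.35, 10.16 and 10.26 log2 in carcinoma and 10.03, 10.00 and 10.04 in adenoma. That came from a few genes: beside Tnfsf10, the inflammatory caspase Casp12 differed by 1.06 (SE 0.318), the death agonist Bid by 0.45 (SE 0.160) and the survival factor Bcl2 by 0.88 (SE 0.337). Without adenoma 1805 Bid differed by 0.30 and Bcl2 by 0.49. Glycolysis and hypoxia genes were lower in 18 of 19 (median -0.469, and -0.167 without adenoma 1805). Car9, a carbonic anhydrase induced by low oxygen, had 9.22, 8.32 and 9.52 in carcinoma and 10.12, 10.00 and 11.23 in adenoma (difference -1.43, SE 0.432). Subunits of oxidative phosphorylation were lower in 18 of 19, but by a median of -0.0771 (-0.141 without adenoma 1803). Idi1, an enzyme of cholesterol synthesis, had 10.64, 10.45 and 10.33 in carcinoma and 11.12, 10.93 and 10.84 in adenoma (difference -0.49, SE 0.118). Egfr, the receptor of epidermal growth factor, had 10.64, 10.68 and 10.62 in carcinoma and 11.47, 10.78 and 12.41 in adenoma, a difference of -0.91 that was -0.48 without adenoma 1805. Pla2g2a, the secreted phospholipase known as the Mom1 modifier of Min tumors, had 13.99, 13.92 and 13.95 in carcinoma and 13.88, 13.89 and 12.71 in adenoma, and its difference of 0.46 was 0.07 without adenoma 1805.

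**Figure D5:**
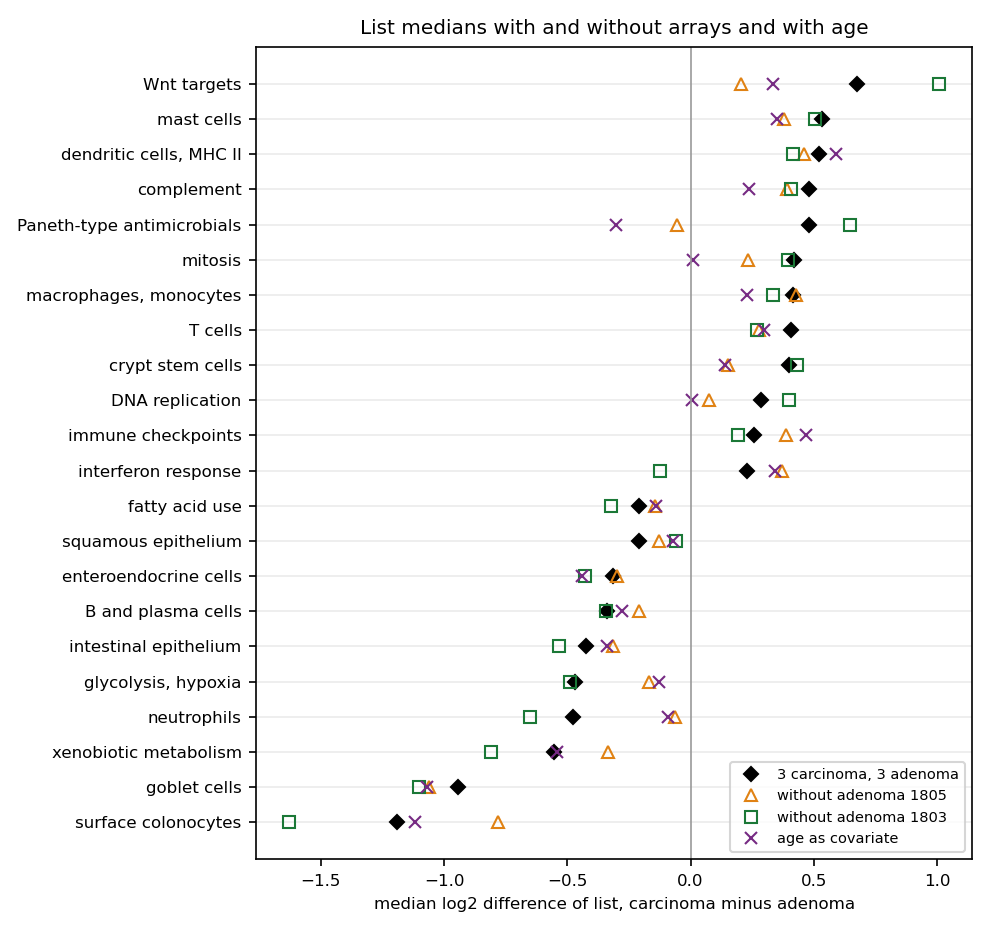
Median log2 difference between carcinoma and adenoma (horizontal, positive where carcinoma is higher) for the 22 lists with a median of at least 0.2 in either direction. Black diamonds use all 6 arrays, orange triangles leave out adenoma 1805, green squares leave out adenoma 1803 and purple crosses add age as a covariate: goblet cell medians stay between -0.942 and -1.10, whereas the mitosis median moves from 0.418 to 0.00822 with age.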

How the data were processed

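RNA from 6 late biopsies was compared, and 6 early biopsies of the same tumors were used for description and for 1 alternative. Per the labels' protocols, biopsies were kept in RLT buffer or RNALater (the labels do not say which), and each array took 300 ng of RNA. The authors deposited 1 value for each of 35557 probe sets per array. The deposited values were read as log2 intensities from their range, since neither labels nor file state unit, summary or normalization, and they were used as deposited.

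Probe sets with 1 gene symbol (21789) were kept, 1621 with several and 12147 with none were not, and for the 999 genes with more than 1 the probe set with the highest mean was used, which left 19938 genes. Carcinoma was compared with adenoma on the 6 late arrays by limma (version 3.58.1, R 4.3.3; linear fits with an empirical Bayes variance, 2-sided, 4 residual degrees of freedom, Benjamini-Hochberg adjustment over all genes, threshold 0.05). ± is the SD over mice, SE is that of the moderated test, and differences are carcinoma minus adenoma in log2. The fit was checked on simulated data. Nothing in the labels says that mice were litter mates or were processed together, and p-values measure the spread between these 6 mice.

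Genes were named by rule: 12 per direction with the smallest p among genes whose groups did not overlap, up to 6 per direction of the greatest size in that set, up to 4 per list with the smallest p, and a set of fixed genes, not all of which are reported here. Predicted genes and genes under the 25th percentile of mean intensity were left out of the first 2 of these. Akr1c19, Olfm4 and the 11 genes called without adenoma 1803 were named after their values were seen. The comparison, gene lists and fixed genes were chosen with earlier results of these data known. Alternatives were sex or age as a covariate, all 12 arrays with the mouse as a random block, leaving out each array, a filter on dim genes, quantile normalization, the mean of probe sets, a trended robust prior and array weights. A test of all probe sets was added after seeing the data. Because final pathology belongs to the mouse, early and late arrays of a mouse are paired but carcinoma and adenoma are not.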

Additional observations from a re-analysis of the deposited data

How the results depend on the processing

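The count of genes past the threshold was 0 with sex or age as a covariate, a filter on dim genes (14953 genes), quantile normalization, the mean of probe sets, a trended robust prior, array weights and all probe sets taken 1 by 1. It was also 0 over all 12 arrays with a replicate block for the mouse (smallest adjusted p = 0.251 by limma, consensus correlation 0.286). Leaving out 1 array gave 0 to 11, and the 11 came without adenoma 1803. Unadjusted p was under 0.05 for 1543 genes, against 400 with age, 2341 with the replicate block, 2818 with array weights and 2821 probe sets in that last test. Leaving out 1 array gave 642 (without carcinoma 3413) to 3437 (without adenoma 1803), with 1009 without carcinoma 2201 and 1008 without adenoma 1805; fewer samples leave less power, and the cause of the larger count was not tested. Of 125 named genes checked, 122 kept their direction in each of the 14 alternatives. Many of them were picked by the smallest p in this comparison, which favours a kept direction. Apc was -0.18 to 0.04 when 1 array was left out (positive without carcinoma 2201), and Myc was -0.20 to 0.53 (negative without adenoma 1805), -0.18 with age and -0.08 with array weights. Mki67 was -0.14 with age. Of 57 list medians, 34 kept their sign in each alternative, as did 17 of the 18 that were at least 0.3 in size. The exception was the Paneth-type antimicrobial list, at 0.479, which was -0.303 with age. A kept sign was not always a kept size. With age the mitosis median fell from 0.418 to 0.00822 and the glycolysis and hypoxia median went from -0.469 to -0.129. The neutrophil median went from -0.477 to -0.0622 without adenoma 1805. With 3 mice per group, age and pathology overlap too far for the age-adjusted values to separate them, and dim genes such as Akr1c14 in carcinoma lie near background, where intensity differences are compressed.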

Other observations

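Other gene groups of the late biopsies were as follows, with 0 genes past the threshold in any. Notch pathway genes had no common direction, 10 of 18 higher in carcinoma with a median of 0.0302 (-0.0462 without adenoma 1805), but Jag1, a Notch ligand, stood at 9.70, 9.62 and 9.24 log2 in carcinoma 2201, 3407 and 3413, against 10.04, 9.84 and 10.32 in adenoma 1755, 1803 and 1805 (difference -0.54, SE 0.173). Basement membrane genes were split within the laminins. Lamb2, a laminin chain of vessels and muscle, had 9.82, 10.20 and 9.99 in carcinoma and 9.44, 9.80 and 9.06 in adenoma, whereas Lama3, a chain of epithelial anchoring laminin, had 9.12, 9.25 and 9.51 in carcinoma and 9.69, 9.65 and 10.59 in adenoma (difference -0.69, and -0.38 without adenoma 1805). Klf4, a factor of differentiated surface cells and an immediate early gene, had 9.83, 9.93 and 9.64 in carcinoma and 10.65, 10.33 and 11.95 in adenoma (difference -1.18, SE 0.408, and -0.69 without adenoma 1805). Nr1d2, a repressor of the circadian clock, had 10.45, 10.41 and 10.41 in carcinoma and 9.94, 10.29 and 10.00 in adenoma (difference 0.35, SE 0.110), while its list had 8 of 16 higher. Hox genes were lower in 21 of 31, by a median of -0.0693 that was -0.014 without adenoma 1805 and -0.000215 without adenoma 1803.

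Red cell genes differed with adenoma 1805. Slc4a1, the anion exchanger of erythrocytes, had 7.65, 7.98 and 7.81 log2 in carcinoma and 8.16, 9.38 and 11.36 in adenoma, and Alas2, which starts heme synthesis in red cell precursors, had 7.85, 8.82 and 8.92 in carcinoma and 8.79, 9.83 and 11.77 in adenoma. These 2 were the measured genes of the erythroid list, whose median of -1.71 was -0.866 without adenoma 1805, with Slc4a1 at -0.95 and Alas2 at -0.78. Interferon response genes were higher in 11 of 21 (median 0.23, 0.371 without adenoma 1805 and -0.125 without adenoma 1803), and their list mean was highest in carcinoma 2201, at 9.24, against 7.91 and 8.49 in the other carcinomas and 7.89 to 8.96 in adenoma.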
